A study of Mus musculus with 4 samples.

Results

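A set of 10 genes that mark chemosensory, tuft-like microvillar cells was examined in the septal nasal mucosa of young adult and aged mice. They were *Trpm5*, *Pou2f3*, *Chat*, *Gnat3*, *Plcb2*, *Avil*, *Il25*, *Sh2d7*, *Alox5* and *Ltc4s*, and they were chosen by name as 10 of the 45616 genes on the array. All 10 genes had probes, 17 in total, found through the RefSeq accession that the array design gives each non-control probe. Young adult mice were 8 weeks old and aged mice were 16 months old. All were C57BL/6J mice, given as male in the study's methods, and the arrays compare age alone, with no treatment and no altered gene. The mucosa was collected right after death and snap-frozen, and the total RNA of 5 mice was pooled for each array, with 2 arrays per age. The study asked how gene expression in the nasal mucosa changes with age.

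The olfactory epithelium holds microvillar cells that are not neurons but carry a taste-like signalling chain, and relatives of these cells occur in the respiratory epithelium of the nose, the trachea and the gut, where they are called tuft, brush or solitary chemosensory cells. A receptor for bitter compounds, metabolites or odorants activates a G protein and phospholipase C beta 2, calcium leaves internal stores, and the cation channel TRPM5 opens. The cells then release acetylcholine, interleukin 25 or cysteinyl leukotrienes, which act on nearby nerves, epithelium and type 2 immune cells, and the transcription factor POU2F3 is needed for their formation.

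One field of the labels speaks of silica aspiration and lung cells, which fits neither the sample titles nor the study's methods, and it was set aside. The labels call the 2 arrays of an age experimental replicates, and the number of mice that the methods give for gene work is too small for 2 pools of 5 with no mouse in common. No source used here says which mice went into which pool, so the P values measure only the spread between these pools, which may be technical. Between 63.1 and 76.8% of the non-control spots were well above background. *Xist*, a transcript of the inactive X chromosome, was between 612 and 645 on the 4 arrays, and all 4 Y-linked genes examined (*Ddx3y*, *Uty*, *Kdm5d* and *Eif2s3y*) were above background on no array, which goes against the stated male sex at both ages alike. The arrays of pool 1 of both ages were on the same slide, and those of pool 2 were on separate slides. Marker genes of the labelled tissue were present, with all 10 markers of mature olfactory receptor neurons (ORNs) and all 7 of sustentacular cells above background on every array.

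Expression levels below are normalized intensities, and pool 1 is always given before pool 2. Because each probe binds with its own strength, the level of one gene was not compared with that of another. Calls required P below 0.05 together with a false discovery rate (FDR, by Benjamini and Hochberg) below 0.25 in limma over all 45616 genes. By that rule, 1 of the 10 genes was called higher in the aged mucosa and 0 were called lower, against 1.65% of all genes called higher and 2.33% called lower. At P below 0.05 without correction, 3 of the 10 were higher and 1 was lower, where 6.05% of all genes were higher and 7.09% lower by that limit. Both aged arrays lay above both young adult arrays for 3 of the 10 genes and below them for 2, where 24.2% of all genes were separate upwards and 21.8% downwards. The median log2 fold change of the 10 genes was 0.03, beside 0.01 over all genes. Of the 10 genes, 7 were above background on all 4 arrays (*Trpm5*, *Chat*, *Plcb2*, *Avil*, *Sh2d7*, *Alox5* and *Ltc4s*), counting a gene as above background where any of its probes was.

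**Figure D1:**
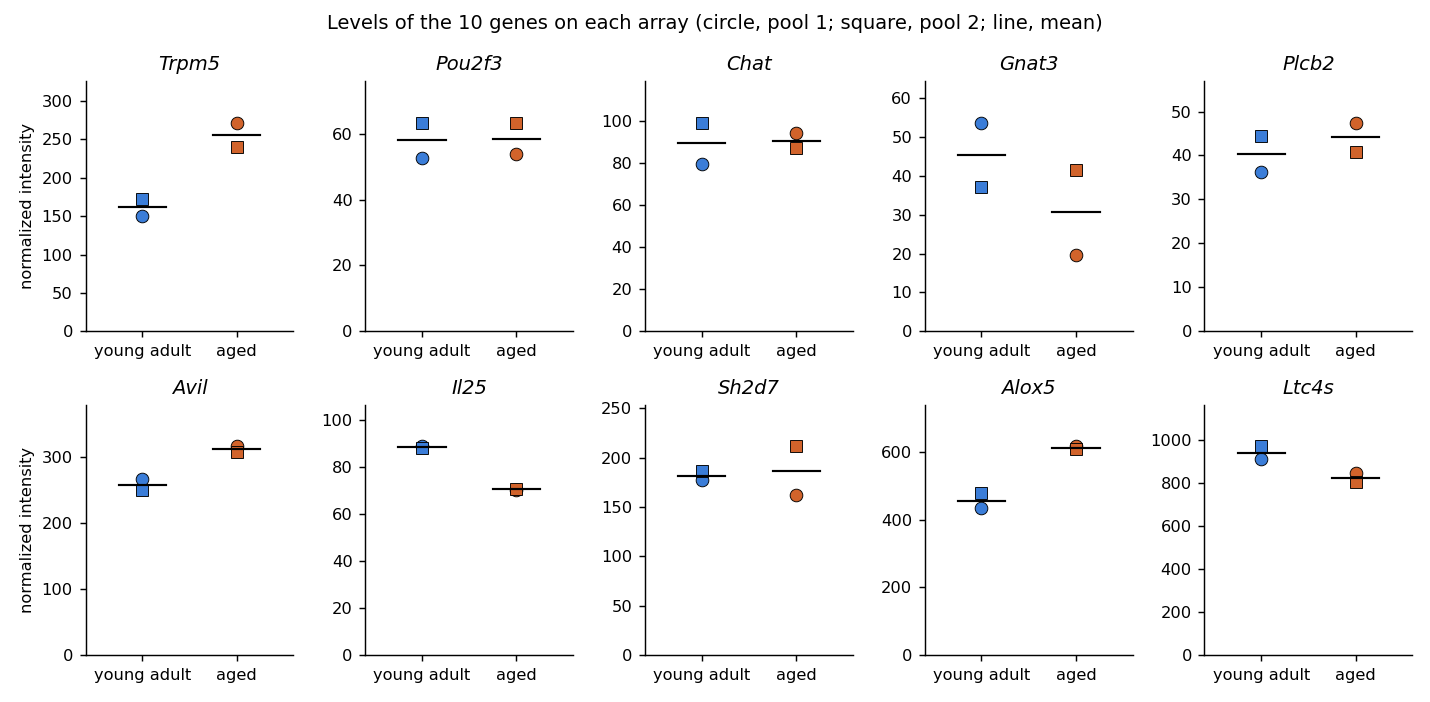
Normalized intensity of each of the 10 genes on the 4 arrays, young adult in blue and aged in orange, with a circle for pool 1, a square for pool 2 and a line at the mean. *Trpm5*, *Avil* and *Alox5* were higher on both aged arrays, *Il25* and *Ltc4s* were lower on both, and the ages overlapped for the other genes.

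*Trpm5*, which encodes the calcium-activated cation channel at the end of the taste-like chain, was the only one of the 10 genes that passed the test. Its level was 151 and 172 in the young adult pools and 272 and 241 in the aged pools. Both aged arrays were above both young adult arrays, and the single probe was above background on all 4. The mean rose from 161 ± 14.8 to 256 ± 22.1 (SD, n = 2 pools each), a log2 fold change of 0.67 with a standard error (SE) of 0.12 and a 95% confidence interval from 0.30 to 1.04 (limma, FDR = 0.245). This is a 1.59-fold rise, which with a mean above 100 also met the limits of the study for a differentially expressed gene. The difference was 0.85 on the log2 scale between the arrays that shared a slide and 0.49 between the other pair. In bulk samples such as these, more or fewer cells of a type and more or less RNA per cell cannot be told apart. The FDR lay just under the limit: it was 0.287 when arrays were scaled to their 75th percentile and between 0.407 and 0.683 when each of the 4 arrays was dropped in turn, while the log2 fold change stayed between 0.57 and 0.76 in those 4 fits.

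Because *Trpm5* was the only gene of the set called, the stretch just before its transcription start is shown. It covers 250 bases on the minus strand at chr7:143094643-143094892 of the GRCm38.p6 assembly, as RefSeq gives it, and 52.8% of its bases are G or C.

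Trpm5 upstream: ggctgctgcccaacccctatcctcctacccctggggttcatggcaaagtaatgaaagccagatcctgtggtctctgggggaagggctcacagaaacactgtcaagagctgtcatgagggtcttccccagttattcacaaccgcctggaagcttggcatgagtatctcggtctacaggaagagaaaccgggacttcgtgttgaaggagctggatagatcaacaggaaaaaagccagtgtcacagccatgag

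Octamer-binding POU proteins are known for the letters ATGCAAAT. These were searched on both strands (ATTTGCAT on the other) in the window from 250 bases before to 50 after the start of each gene. They stood in 0 of the 8 windows found for the 10 genes and in 570 of all 32851 windows (1.74%). The search says only that these letters are not in those windows.

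*Pou2f3*, the transcription factor that tuft cells need to form, was 52.7 and 63.3 in the young adult pools and 53.9 and 63.1 in the aged pools. The ages overlapped almost completely, with a log2 fold change of 0.01 and an interval from -0.44 to 0.47 (limma, FDR = 0.976). Each of its 2 probes was above background on 1 array of each age. The brighter probe differed by 0.31 and the other by -0.29, so the level of the gene averages probes that went opposite ways.

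*Sh2d7*, which encodes an SH2-domain adaptor found in tuft cells, was 177 and 186 in the young adult pools and 162 and 211.5 in the aged pools. The aged arrays lay on either side of the young adult arrays. The log2 fold change was 0.03 with an interval from -0.47 to 0.53 (limma, FDR = 0.956).

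*Avil* encodes advillin, an actin-bundling protein of the microvilli. Its level was 266.5 and 250 in the young adult pools and 316 and 308.5 in the aged pools. Both aged arrays were above both young adult arrays, but the difference did not pass the correction over all genes (log2 fold change 0.28, SE 0.08, limma, FDR = 0.348). Its 2 probes gave 0.30 and 0.25, and each was above background on all 4 arrays. Within the shared slide the difference was 0.25, and between the other pair it was 0.30. *Avil* was called higher under 3 of 16 other settings. These were the quantile normalized processed signal (limma, FDR = 0.192), dim probes left out (FDR = 0.113) and an intensity trend (FDR = 0.217).

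*Gnat3* encodes gustducin, the G protein alpha subunit that links taste receptors to the chain. It was 53.7 and 37.1 in the young adult pools and 19.7 and 41.6 in the aged pools, and the ages overlapped. Its probe was above background on 1 young adult array and on 0 aged arrays, so neither age has a firm level and the differences that follow are not a measured fold. The fit did not call it (log2 fold change -0.64, interval -2.04 to 0.76, limma, FDR = 0.627), and the difference was -1.45 within the shared slide and 0.16 between the other arrays.

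*Plcb2*, which encodes phospholipase C beta 2, was 36.2 and 44.5 in the young adult pools and 47.45 and 40.8 in the aged pools. These levels overlapped (log2 fold change 0.13, interval -0.34 to 0.61, limma, FDR = 0.757), and they average 4 probes that disagreed. One probe was 29.6 and 37.1 in young adult and 136 and 39.0 in aged pools, with aged array 1 alone standing high and alone above background. A second probe was 64.0 and 73.0 in young adult and 50.3 and 52.15 in aged pools, above background on 3 arrays. That probe was lower on both aged arrays by 0.42 on the log2 scale (log2 fold change -0.42, SE 0.11), without passing the correction over all probes (limma, FDR = 0.297). The other probes differed by -0.15 and -0.03 and were above background on 1 array and on none.

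*Chat* encodes choline acetyltransferase, the enzyme that makes acetylcholine. Averaged over its 3 probes it was 79.3 and 99.1 in the young adult pools and 94.2 and 86.9 in the aged pools, which overlapped (log2 fold change 0.03, interval -0.42 to 0.48, limma, FDR = 0.948). The probes did not move together. The brightest, the only one above background on all 4 arrays, was 148 and 132.5 in the young adult pools and 207 and 217 in the aged pools. Both aged arrays were clearly above both young adult arrays, and this probe passed the test over all 56605 probes (log2 fold change 0.60, SE 0.10, limma, FDR = 0.217), where 1.84% of all probes were called higher and 2.65% lower. The other probes differed by -0.22 and -0.30 with overlapping arrays, and each was above background on only some arrays of an age. Taking the most intense probe for each gene in place of the average, *Chat* was called higher in the aged mucosa (log2 fold change 0.60, limma, FDR = 0.209). That call rests on the same single probe and adds no separate support. Under that setting 1004 of all 45616 genes were called higher and 1411 lower.

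**Figure D2:**
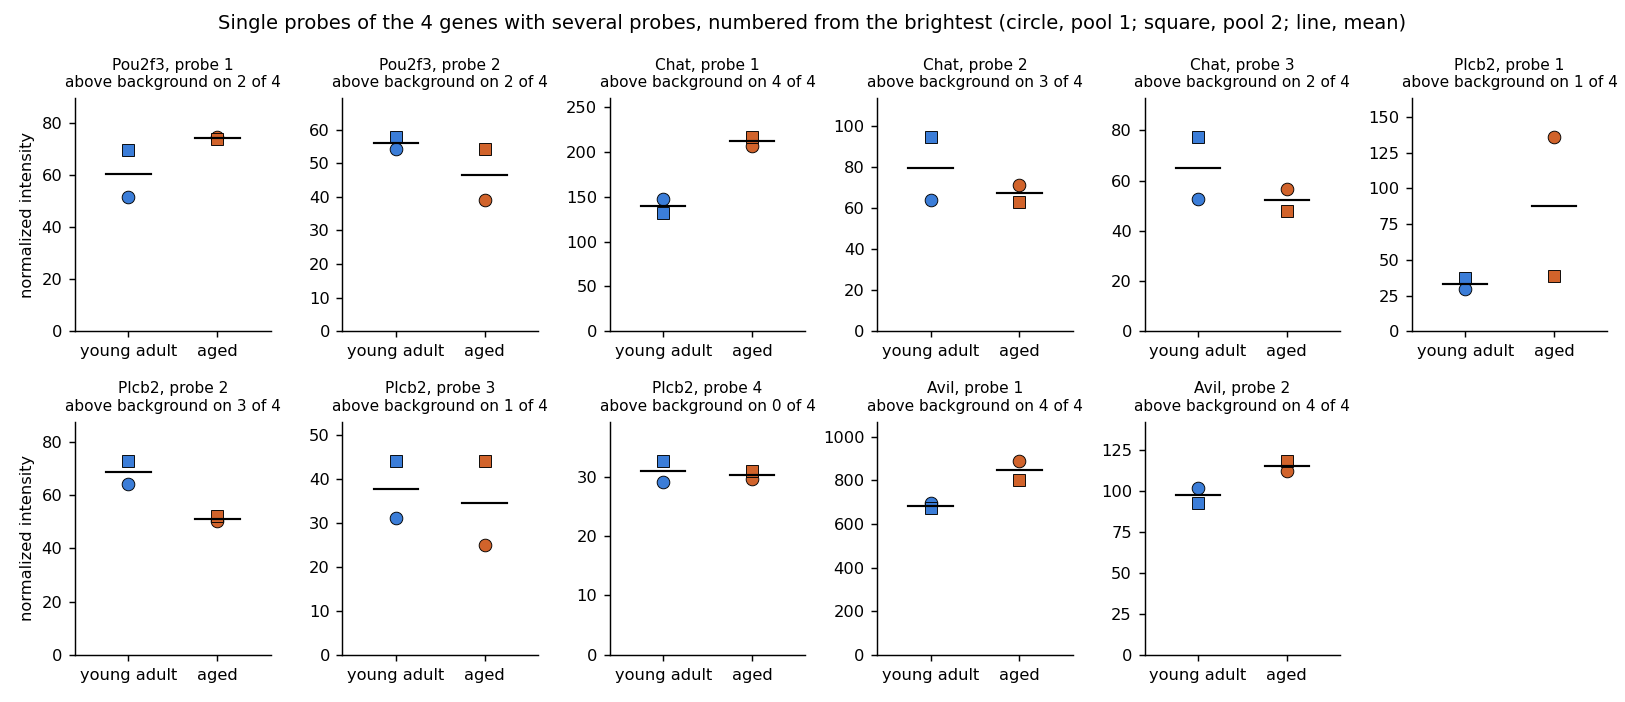
Normalized intensity of each single probe of *Pou2f3*, *Chat*, *Plcb2* and *Avil*, numbered from the brightest, on the 4 arrays (circle for pool 1, square for pool 2, line at the mean), with the number of arrays on which it was well above background. The brightest *Chat* probe was higher on both aged arrays while its other probes overlapped, and the first *Plcb2* probe was high on aged array 1 alone. Numbers follow the mean intensity. By mean log2 level, which the most intense probe setting uses, the second *Plcb2* probe comes first.

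*Il25* encodes the cytokine by which tuft cells activate type 2 lymphoid cells. It was 88.8 and 88.2 in the young adult pools and 70.4 and 70.8 in the aged pools. Both aged arrays were below both young adult arrays, with little spread within an age, but only 1 of the aged arrays had the probe above background. The log2 fold change was -0.33 (SE 0.07, interval -0.55 to -0.11, limma), and the FDR of 0.282 lay above the limit. The difference was -0.33 within the shared slide and -0.32 between the other arrays. With the scanner software's own background-subtracted signal it was called lower, at -0.63 after quantile normalization (FDR = 0.140) and at -0.66 after scaling to the 75th percentile (FDR = 0.242). It was also called lower without background correction (log2 fold change -0.27, limma, FDR = 0.226), but not with a background offset of 16 (FDR = 0.273). A further call, without dim probes, came from a probe kept through its young adult arrays alone and is no support. Some settings went further from a call. With an intensity trend in the fit the FDR was 0.451, and with the main signal scaled to the 75th percentile it was 0.443.

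*Alox5* encodes 5-lipoxygenase, which starts leukotriene synthesis. It was 434 and 479.5 in the young adult pools and 618 and 610 in the aged pools, above background on all 4 arrays. Both aged arrays were above both young adult arrays, and the mean was 457 ± 32.0 in young adult and 614 ± 5.16 in aged mice (SD, n = 2 pools each). The log2 fold change was 0.43 (SE 0.09, interval 0.15 to 0.70, limma), a ratio of 1.35, and the FDR of 0.271 missed the limit. The difference was 0.51 within the shared slide and 0.35 between the other arrays. It was called under 6 of 16 other settings, among them a background offset of 16 (FDR = 0.215) and of 50 (FDR = 0.125).

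*Ltc4s*, which encodes leukotriene C4 synthase, the enzyme that makes the first cysteinyl leukotriene, went the other way. It was 911 and 969 in the young adult pools and 843 and 804 in the aged pools. Both aged arrays were below both young adult arrays by a small margin, and the gene was not called (log2 fold change -0.19, interval -0.44 to 0.06, limma, FDR = 0.477). *Alox5* and *Ltc4s* were thus separate in opposite directions, and neither passed the test in the main fit. With an intensity trend in the fit both were called, *Alox5* higher (limma, FDR = 0.0347) and *Ltc4s* lower (limma, FDR = 0.216). Under that setting 3607 of all 45616 genes were called higher and 3517 lower.

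The genes that work beside these 10 were followed in lists. Of 13 taste-type transduction genes on the array, 1 was called higher and 1 lower, with a median log2 fold change of -0.25 beside 0.01 over all genes. *Rgs13*, a regulator of G protein signalling found in tuft cells, was 103 and 98.9 in the young adult pools and 187 and 161 in the aged pools. It rose by 0.78 on the log2 scale with both aged arrays above both young adult arrays (SE 0.11, limma, FDR = 0.210), and each of its 2 probes gave 0.78. *Sucnr1*, the succinate receptor, was the gene called lower, but its probe was above background on no array, so no fold is given.

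The rest of the transduction chain was not called. *Itpr3*, which encodes the receptor that releases calcium from stores, was 18050 and 17240 in the young adult pools and 14650 and 14970 in the aged pools, separate downwards (log2 fold change -0.25, limma, FDR = 0.359). *Gnb3* differed by 0.03 and *Gng13* by 0.10; they encode G protein beta and gamma subunits, and the second is also abundant in ORNs. *Tas1r3*, a subunit of the sweet and umami receptors, was 179 and 255 in young adult and 162 and 195 in aged pools, with overlapping arrays (log2 fold change -0.26, limma, FDR = 0.685). All 10 ORN markers were higher on both aged arrays, where 24.2% of all genes were. Their summed level ran from 460700 to 471800 in young adult and from 516600 to 524000 in aged pools. A summed level adds probes of unequal strength, so its brightest probes weigh most, and *Omp* alone gave 286100 to 332600 of this sum. *Stoml3* was the 1 marker called (log2 fold change 0.43), and none of the 10 was dim on any array. By the same rule 1.65% of all genes were called higher and 2.33% lower. Of 7 sustentacular cell markers, 5 were higher on both aged arrays and *Cyp1a2* was called (log2 fold change 0.54), while *Sult1c1* was lower on both and not called (log2 fold change -0.26, limma, FDR = 0.339), with a summed level of 739500 and 740600 in young adult and 785600 and 771400 in aged pools. The part of these cells in the differences of the 10 genes was not tested.

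Of 35 bitter receptor genes, 30 were above background on no array. *Tas2r109* and *Tas2r113*, named here after their values were seen, were the 2 above background on all 4 arrays. The first was 648.5 and 664 in young adult and 662 and 743 in aged pools, and the second was 128 and 150 in young adult and 108 and 144 in aged pools, so the ages overlapped in both. One bitter receptor, *Tas2r136*, was called higher, where 1.65% of all genes were, but it was dim on every array and has no measured fold.

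Among 20 other tuft cell genes, 1 was called higher and 1 lower, with a median log2 fold change of -0.15. *Spib*, an ETS-family transcription factor expressed in tuft cells and in B cells, was 241 and 209 in the young adult pools and 333 and 343 in the aged pools. It rose by 0.59 on the log2 scale with no overlap (SE 0.11, limma, FDR = 0.243). *Hpgds*, which encodes hematopoietic prostaglandin D synthase, was 222.5 and 203 in the young adult pools and 97.7 and 102 in the aged pools. It fell by 1.09 on the log2 scale, a change opposite to that of *Trpm5* (SE 0.09, limma, FDR = 0.178). *Ptgs1*, the cyclooxygenase gene one step earlier, was separate downwards without passing the correction (log2 fold change -0.32, limma, FDR = 0.298).

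*Dclk1* and *Gfi1b*, which are among these other tuft cell genes, showed overlapping ages, unlike the genes of the list counted above as separate. *Dclk1*, a microtubule-associated kinase, was 551 and 510 in young adult and 527 and 558 in aged pools (log2 fold change 0.03). *Gfi1b*, a transcriptional repressor, was 65.0 and 87.4 in young adult and 56.5 and 78.2 in aged pools (log2 fold change -0.18), above background on 1 array of each age.

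**Figure D3:**
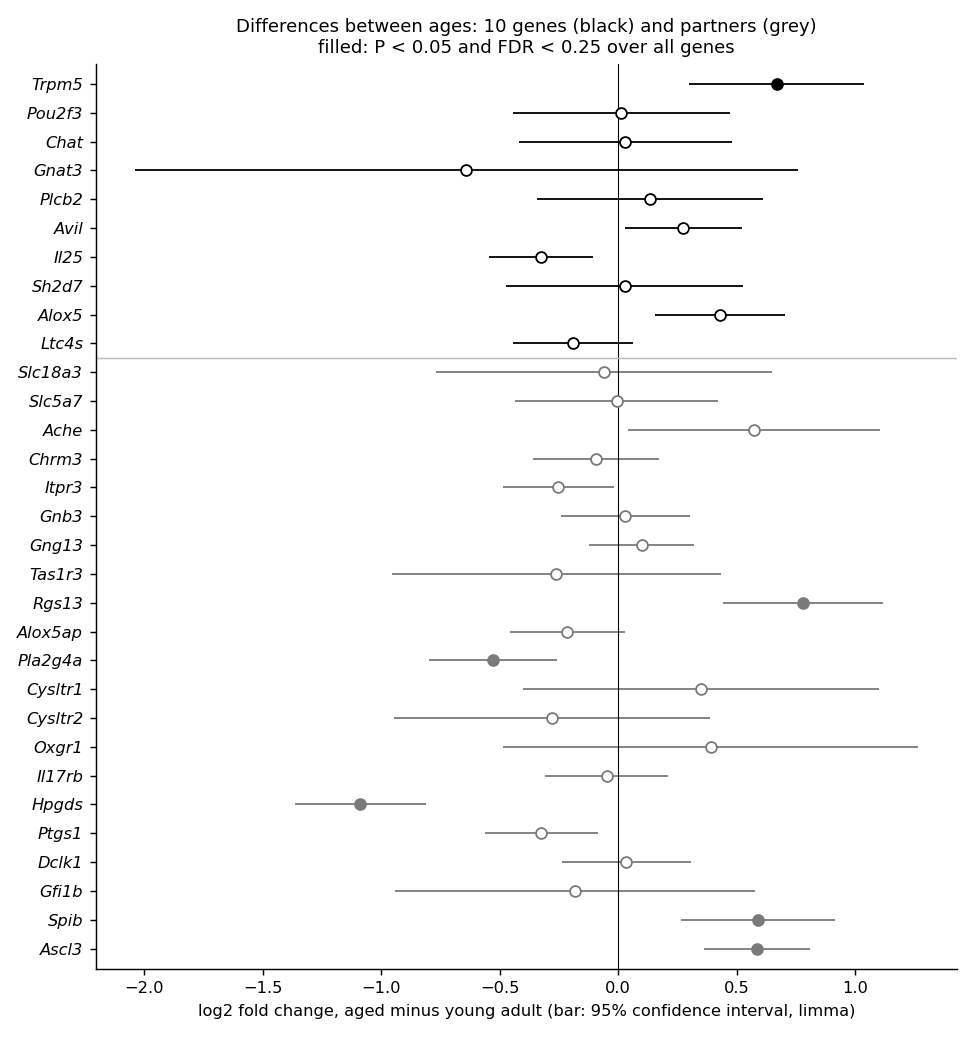
Log2 fold change (aged minus young adult) with its 95% confidence interval for the 10 genes in black and for 21 partner genes in grey, filled where called at P below 0.05 and FDR below 0.25. *Trpm5*, *Rgs13*, *Spib* and *Ascl3* were called higher and *Hpgds* and *Pla2g4a* lower. *Rgs13*, *Spib* and *Pla2g4a* are not fixed partners and were named through their calls, and other called list genes are not shown.

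Of 21 genes for handling or sensing acetylcholine, 0 were called higher and 1 lower, with a median log2 fold change of 0.02. At uncorrected P below 0.05 there were 1 and 1, beside 6.05% and 7.09% of all genes. *Slc18a3*, the vesicular acetylcholine transporter gene that lies in the same locus as *Chat*, was 126 and 157 in young adult and 114 and 160 in aged pools, which overlapped (log2 fold change -0.06). *Slc5a7*, the choline transporter gene, was dim on all 4 arrays. *Ache*, which encodes the enzyme that breaks acetylcholine down, was 113 and 91.15 in young adult and 137 and 167 in aged pools, separate upwards without passing the correction (log2 fold change 0.57, limma, FDR = 0.357). The muscarinic receptor gene *Chrm3* differed by -0.09, with the aged arrays at 189 and 199 just below the young adult arrays at 200 and 214. This averages 2 probes that disagreed. The brighter, above background on all 4 arrays, differed by -0.23 on the log2 scale, and the other, above background on 3, by 0.05. *Chrm5*, the receptor gene called lower, was 37.3 and 41.15 in young adult and 25.5 and 24.2 in aged pools (limma, FDR = 0.210), but it was above background on only 1 young adult array and on 0 aged arrays, so no fold is given.

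Of 14 leukotriene pathway genes other than *Alox5* and *Ltc4s*, 0 were called higher and 1 lower, with a median of -0.24. At uncorrected P below 0.05 there were 1 and 3, beside 6.05% and 7.09% of all genes. *Pla2g4a*, which encodes the phospholipase that frees arachidonic acid for 5-lipoxygenase, was 1566 and 1495 in young adult and 1017 and 1105 in aged pools. It fell by 0.53 on the log2 scale (SE 0.09, limma, FDR = 0.234). *Alox5ap*, the gene of the protein that presents arachidonic acid to 5-lipoxygenase, was 1324 and 1406 in young adult and 1181 and 1170 in aged pools. It was separate downwards and not called (log2 fold change -0.21, limma, FDR = 0.416), where *Alox5* itself was separate upwards. Among the receptors, *Cysltr1* overlapped (log2 fold change 0.35, limma, FDR = 0.623), and *Cysltr2* and *Oxgr1* were dim on all 4 arrays.

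Leukocytes also express *Alox5*, *Alox5ap*, *Ltc4s* and *Hpgds*, and some of their markers differed between the ages. All 9 macrophage markers were lower in the aged mean, with *Cd68*, *Mrc1* and *C1qc* called, and their summed level was 11220 and 11730 in young adult and 8878 and 8900 in aged pools. All were above background on every array. Over all genes, 2.33% were called lower and 1.65% higher. All 9 measured neutrophil genes were lower in the aged mean, 4 of them called (*S100a8*, *S100a9*, *Ngp* and *Ltf*), with a summed level of 278600 and 267400 in young adult and 174700 and 165100 in aged pools. Nearly all of that sum was *Ltf*, at 266000 and 254100 in young adult and 167900 and 158300 in aged pools, and gland cells also express it. Of 9 measured mast cell genes only *Kit* was called, lower (log2 fold change -0.60), and the median over the list was 0.00. The summed level was 4595 and 4733 in young adult and 3975 and 3953 in aged pools, most of it from *Kit* and *Hdc* (log2 fold change -0.20). The protease genes *Cpa3*, *Mcpt4* and *Tpsb2* differed by 0.23, 0.26 and 0.00 without being called, and *Mrgprb2* was dim on all 4 arrays. Of 7 eosinophil genes 0 were called in either direction. At uncorrected P below 0.05 there were 0 higher and 1 lower, beside 6.05% and 7.09% of all genes. The summed level of the eosinophil genes was 624 and 672 in young adult and 587.5 and 574 in aged pools, and *Epx* was dim on all 4 arrays. The part of these cells in the values of the leukotriene and prostaglandin genes was not tested.

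Of 20 genes of the type 2 circuit that IL-25 feeds, limma called 0 in either direction. At uncorrected P below 0.05 there were 0 higher and 6 lower, beside 6.05% and 7.09% of all genes. The median log2 fold change was -0.13. *Il17rb*, the IL-25 receptor subunit, was 103 and 111 in young adult and 105 and 101 in aged pools, which overlapped (log2 fold change -0.05, limma, FDR = 0.838). The eotaxin gene *Ccl11*, named here after its values were seen, was 128 and 141 in young adult and 81.7 and 93.7 in aged pools. It was separate downwards and missed the limit narrowly (log2 fold change -0.62, limma, FDR = 0.251).

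**Figure D4:**
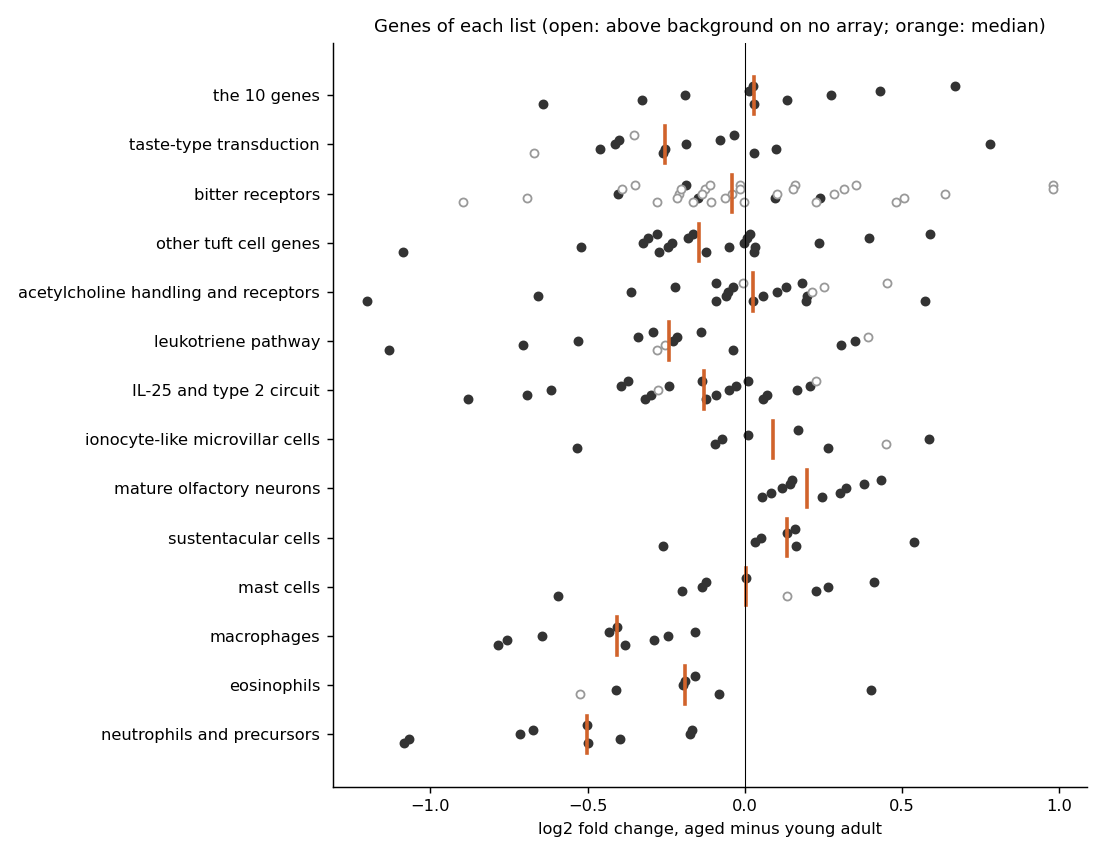
Log2 fold change (aged minus young adult) of every gene of the 10-gene set, the related lists and the cell type markers, one point per gene, open where above background on no array, with an orange line at the median. The 10 genes spread on both sides of 0 around a median of 0.03, the ORN markers all lay above 0, and the macrophage and neutrophil genes all lay below it.

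The other microvillar cells of the olfactory epithelium resemble ionocytes and lack TRPM5. Of 8 of their genes, 2 were called higher and 1 lower, beside 1.65% and 2.33% of all genes. Their median was 0.09, and their summed level was 28820 and 29060 in young adult and 32100 and 31280 in aged pools. *Ascl3*, a transcription factor of ionocytes and gland duct cells, was 4652 and 4562 in young adult and 6877 and 6958 in aged pools and rose by 0.59 on the log2 scale (SE 0.07, limma, FDR = 0.201). *Foxi1*, which directs ionocyte formation, was separate downwards by a small margin (8209 and 8239 in young adult, 8006 and 7654 in aged pools) and was not called (log2 fold change -0.07). *Atp6v0d2*, a proton pump subunit gene, fell by 0.53 on the log2 scale (limma, FDR = 0.214), and *Atp6v1g3*, called higher, was dim on every array. Which cells these differences came from was not tested.

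**Figure D5:**
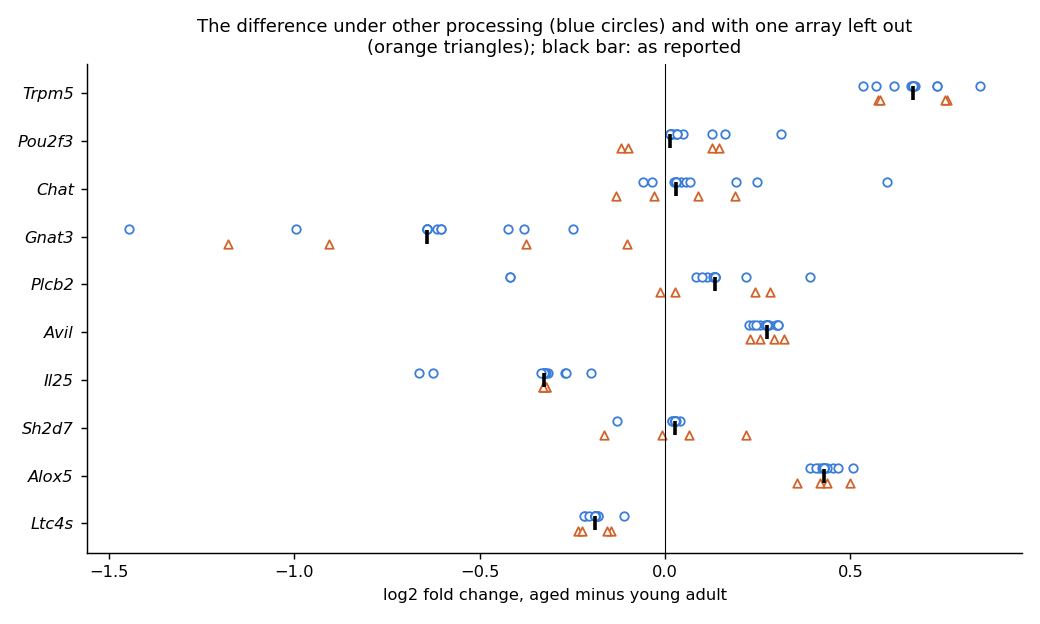
Log2 fold change (aged minus young adult) of each of the 10 genes as reported (black bar), under other processing (blue circles) and with 1 array left out (orange triangles). *Trpm5*, *Avil* and *Alox5* stayed above 0 and *Gnat3*, *Il25* and *Ltc4s* below 0 throughout, while *Pou2f3*, *Chat*, *Plcb2* and *Sh2d7* crossed 0. *Gnat3* was above background on 1 young adult array and on 0 aged arrays, so its values are not a measured fold.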

How the data were processed

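The authors labelled RNA with Cy3, hybridized 4 one-color Agilent arrays and extracted spots with Feature Extraction 11.0.1.1 (file headers; the submitters' notes also name R 3.2.1). They deposited intensity values per spot, namely the median signal, local background and a background-subtracted processed signal, without normalization between arrays. The series value table equalled the processed signal for all 62976 spots of each array.

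From these intensities, background was corrected by normexp (offset 0) on the median signal, because the mean signal planned for was not among the columns used here. Control spots and outlier spots (88 to 118 per array, none from the 10 genes) were left out, spots of a probe were averaged, log2 values were quantile normalized, and probes of a gene were averaged. Accessions were matched to a RefSeq table of GRCm38.p6 for 32994 of 56605 probes. The design was built on another assembly, so no gene coordinates are given, and the *Trpm5* stretch comes from the RefSeq promoter table alone.

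Ages were compared on 4 arrays with limma 3.58.1 (lmFit, eBayes, two-sided) in R 4.3.3, without covariates. As in the study's methods, a call needed P below 0.05 and FDR below 0.25, and a differentially expressed gene also a mean of 100 and a 1.5-fold change. An exact permutation test of 2 against 2 arrays cannot go below p = 0.333. The fit was tested on simulated arrays. No spot was saturated, and the number of arrays and the signal over background limit precision.

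The 10 genes and all lists were chosen with earlier results of these data known. Named are the 10 genes, every called list gene and fixed partners. Alternatives were other offsets, no background correction, the processed signal, 75th percentile scaling, cyclic loess, outlier spots kept, dim probes left out, the most intense probe, an intensity trend, other limits, a replicate block, the shared slide and each array left out.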

Additional observations from a re-analysis of the deposited data

How the results depend on the processing

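The number of the 10 genes called higher was 1. It was 2 with offset 16 or 50, without background correction and with the most intense probe. It was 3 with the quantile normalized processed signal, without dim probes, with an intensity trend and at P below 0.05 alone. It was 0 with 75th percentile scaling of either signal, at FDR below 0.1 or 0.05 and in each fit without 1 array (0 to 0). The number called lower was 0. It was 1 without background correction, with either processed signal and at P below 0.05 alone (*Il25*), and 1 with the trend (*Ltc4s*). It was 2 without dim probes (*Plcb2* and *Il25*). That setting kept probes above background on both arrays of either age, which left no probe of *Pou2f3* or *Gnat3*. The *Plcb2* and *Il25* probes passed it through the young adult arrays alone, where they were higher, so these calls are no support for a fall with age. With the replicate block 0 genes were called in either direction, in the set and over all genes (*Trpm5* 0.67, FDR = 0.433), and same-numbered arrays did not deviate together (correlation -0.08), so the number is not known to pair them. Over all genes, 754 higher and 1063 lower calls became 2107 and 2478 with offset 50, 3607 and 3517 with the trend, 3446 and 3707 without dim probes, and 0 and 0 without any 1 array. Offset 16 gave 1298 and 1693, no background correction 1788 and 2241, and the quantile normalized processed signal 2030 and 2346. Calls over all genes fell to 584 and 826 with 75th percentile scaling and to 645 and 861 with the processed signal so scaled. The most intense probe gave 1004 and 1411, and cyclic loess 954 and 1379. Without dim probes only 29504 genes were tested, in place of 45616. In the main limma fit the smallest FDR over all genes was 0.0946, so no gene passed FDR below 0.05.

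The median log2 fold change of the set (0.03) was 0.17 with the most intense probe, 0.14 within the shared slide, and from -0.067 to 0.168 without 1 array, below 0 without young adult array 1 (-0.067) or aged array 2 (-0.0062). Direction turned for 4 genes that were not called. *Chat* gave -0.034 and -0.060 with the processed signal (quantile and 75th percentile) and -0.13 to 0.19 without 1 array. *Plcb2* gave -0.42 without dim probes (then called, FDR = 0.090, by a probe kept through its young adult arrays alone). It gave -0.42 from that same probe with the most intense probe, and -0.015 to 0.284 without 1 array. *Sh2d7* gave -0.13 within the shared slide and -0.16 to 0.22 without 1 array, and *Pou2f3* -0.12 to 0.15. *Trpm5* kept its direction under all 17 settings and its call under 9 of 16 with a test, losing it also with the processed signal at the 75th percentile (FDR = 0.255). The cause of these changes was not tested. Slide as a random block could not be fitted with 3 slides for 4 arrays, and dim probes limit *Gnat3*, *Pou2f3* and *Plcb2*.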
